A study of Mus musculus with 24 samples.

Results

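The circadian clock genes of the ovary were examined as a set of 10 genes: Clock, Arntl (also called Bmal1), Per1, Per2, Cry1, Cry2, Rora, Nr1d1, Nr1d2 and Dbp. All probe sets annotated to these symbols alone were taken, which gave 16 of the 22626 probe sets tested. On these arrays, several short oligonucleotides together form a probe set and give 1 signal for a transcript. FL1 is a mouse line selected to generation 130 on an index of litter size and litter weight, and DUKsi is an unselected inbred line that shares its origin. Ovaries of virgin females 6 to 9 weeks old were taken in the morning at metestrus, the stage after ovulation, and the mice of both lines lived under 12 hours of light and 12 hours of dark. RNA was pooled into 6 FL1 pools and 6 DUKsi pools, and each pool was hybridized to 2 arrays, 24 in all. The methods give 5 animals per pool, whereas the labels give 6. FL1 was bred from an outbred population whereas DUKsi was inbred by full-sib mating, and each is 1 line, so that selection, inbreeding and drift cannot be told apart. The pools of each line were made up from 30 animals. The values are signals on a linear scale, and a pool's value is the mean of its arrays. Markers of the ovary were present, such as Inha (the inhibin alpha subunit of granulosa cells) at 13644 ± 755 in FL1, against 15297 ± 1219 in DUKsi, and Gdf9 (a growth factor of the oocyte) at 2091 ± 295 in FL1, against 2269 ± 262 in DUKsi.

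The molecular clock is a feedback loop that runs in nearly all cells. Clock and Arntl pair on E-box elements and switch on the Per and Cry genes, whose proteins return to the nucleus and block the pair. In a second loop the orphan receptors Rora (an activator) and Nr1d1 and Nr1d2 (the repressors REV-ERB alpha and beta) compete for ROR elements, of which those of Arntl are the best known. Dbp is an output transcription factor that is itself driven through E-boxes and binds D-box elements. In the ovary, clock transcripts oscillate in granulosa, theca and luteal cells, and gonadotropins can shift their phase. The ovaries came from 1 part of the day, so that the values are levels and not rhythms.

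These elements were looked for in the RefSeq promoter windows (GRCm38.p6), which hold 250 bases before and 50 bases from each start site on. Both strands were searched for the E-box CACGTG, the D-box TTATGNAA and the ROR element core TAGGTCA or TGGGTCA, and no match overlapped another one. The table held 13 windows of 9 member genes, and Per2 was not in it. The E-box was in 2 of the 13 windows and in 7.15% of all 32851 windows. The D-box was in 1 member window and in 3.38% of all windows, and the ROR core in 1 member window and in 6.45% of all windows. The stretches with a match are shown because they carry the elements by which the loop is defined, with the match in capitals, 5′ to 3′ on the strand of the gene.
Per1, chr11:69098769-69098948, plus strand, 180 bases up to the start site, with the E-box first and the D-box after it: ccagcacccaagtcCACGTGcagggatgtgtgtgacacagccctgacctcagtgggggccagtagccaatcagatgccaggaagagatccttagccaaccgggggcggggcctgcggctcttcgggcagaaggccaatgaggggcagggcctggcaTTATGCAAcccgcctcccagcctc
Cry1, chr10:85185095-85185134, minus strand, with the E-box: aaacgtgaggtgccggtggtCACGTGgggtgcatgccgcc
Arntl, chr7:113207530-113207559, plus strand, just after the start site, with the ROR core: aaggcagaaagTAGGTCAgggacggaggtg
A match is a description of the sequence, and these windows are shorter than the regions through which the genes are known to be regulated.

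A probe set was counted as past the test at an adjusted p under 0.01 (limma on log2 signals, Benjamini-Hochberg over all probe sets tested). Of the 16 clock probe sets, 2 rose in FL1, 0 fell and 14 did not pass. The share was 12.5%, beside 3.38% of all probe sets (1.83% higher and 1.55% lower in FL1). Among all probe sets above the median signal, 5.43% were past the test. The risen ones were 1 probe set of Rora and 1 of Dbp, and only that of Rora also reached a ratio of 1.5 between the mean signals, a rule that 2.32% of all probe sets met. With the threshold at 0.05 the higher ones numbered 3 and the lower ones 1, against 6.91% of all probe sets in either direction (3.5% higher and 3.42% lower), and 8 of 16 had an unadjusted p under 0.05, against 4473 of 22626. The median log2 fold change was 0.08 over the 16 and -0.07 over the whole array. When each gene was represented by its probe set of highest mean signal, only Rora of the 10 genes was past the test, beside 3.74% of all genes taken in this way. Rora was also on the list of transcripts that the study drew from these same arrays, so that its difference is no independent evidence of its direction.

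**Figure D1:**
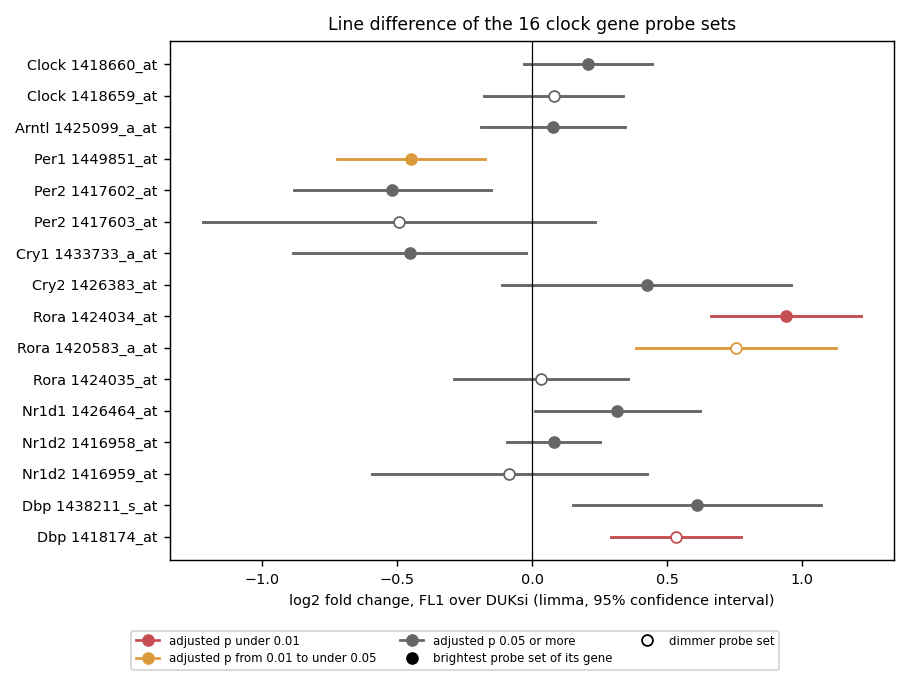
Log2 fold change of FL1 over DUKsi for the 16 clock probe sets, with 95% confidence intervals from limma (6 pools per line). Colours give the adjusted p, filled points the probe set of highest signal of a gene; the Rora probe set 1424034_at lies farthest to the right at 0.94, and Per1, Per2 and Cry1 lie left of 0.

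Rora encodes the retinoic acid receptor-related orphan receptor alpha, a nuclear receptor that activates Arntl, on chromosome 9. Its probe set 1424034_at gave 1399, 1521.45, 1361.5, 1719.1, 1374.25 and 1565.75 in FL1 pools 1 to 6, against 975.25, 707.75, 819.2, 901.6, 501.15 and 838.65 in DUKsi pools 1 to 6. No FL1 pool was as low as the highest DUKsi pool. Such a gap was seen in 4.62% of all probe sets (2.24% with FL1 above and 2.39% with FL1 below) and in 6.96% of those above the median signal. The means were 1490 ± 140 for FL1 and 791 ± 167 for DUKsi (mean ± SD, n = 6 pools each), a ratio of 1.88. The log2 fold change was 0.94 (SE 0.131, 95% interval 0.66 to 1.22, adjusted p = 0.000258), and 2.78% of the probe sets on the array had a larger absolute log2 fold change. In a bulk ovary, more cells that hold Rora and more Rora RNA per cell cannot be told apart.

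A second Rora probe set, 1420583_a_at, gave 654.25 to 1148.35 in FL1 (median 955.6) and 328.1 to 763.6 in DUKsi (median 600.575). FL1 was higher in 35 of the 36 pairs of pools, the exception being FL1 pool 3 against DUKsi pool 1. The log2 fold change was 0.75 (SE 0.174), with an adjusted p of 0.0144 that missed the threshold. FL1 pool 4 was the highest and DUKsi pool 5 the lowest in both of these probe sets, and over the 12 pools their deviations from the line means correlated with r = 0.812.

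The third Rora probe set, 1424035_at, did not show this difference. It gave 164 ± 22.4 in FL1, against 162 ± 32.3 in DUKsi (SD, n = 6 each), and the log2 fold change was 0.03 with an SE of 0.151 (adjusted p = 0.933). The pools overlapped widely, at 135.5 to 196.2 in FL1 and 127.1 to 215.8 in DUKsi. Over all pools the mean of 1424035_at was 163, below the median probe set of the array at 231, and that of 1424034_at was 1140. Whether the low signal of 1424035_at plays a part was not tested. The line effects of 1424034_at and 1424035_at differed by 0.91 on the log2 scale (two-sided exact permutation test over the pools, p = 0.00216, the smallest that 6 against 6 allow; adjusted p = 0.013 over the 6 pairs of probe sets of a gene). Both were designed to 1 and the same cDNA, and the part of the Rora transcript that each covers is not given in the files. The deviations of 1424035_at from the line means correlated with those of 1424034_at at 0.29 and with those of 1420583_a_at at -0.09. In the other 5 pairs, the adjusted p of the same test ran from 0.4545 to 0.9459.

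**Figure D2:**
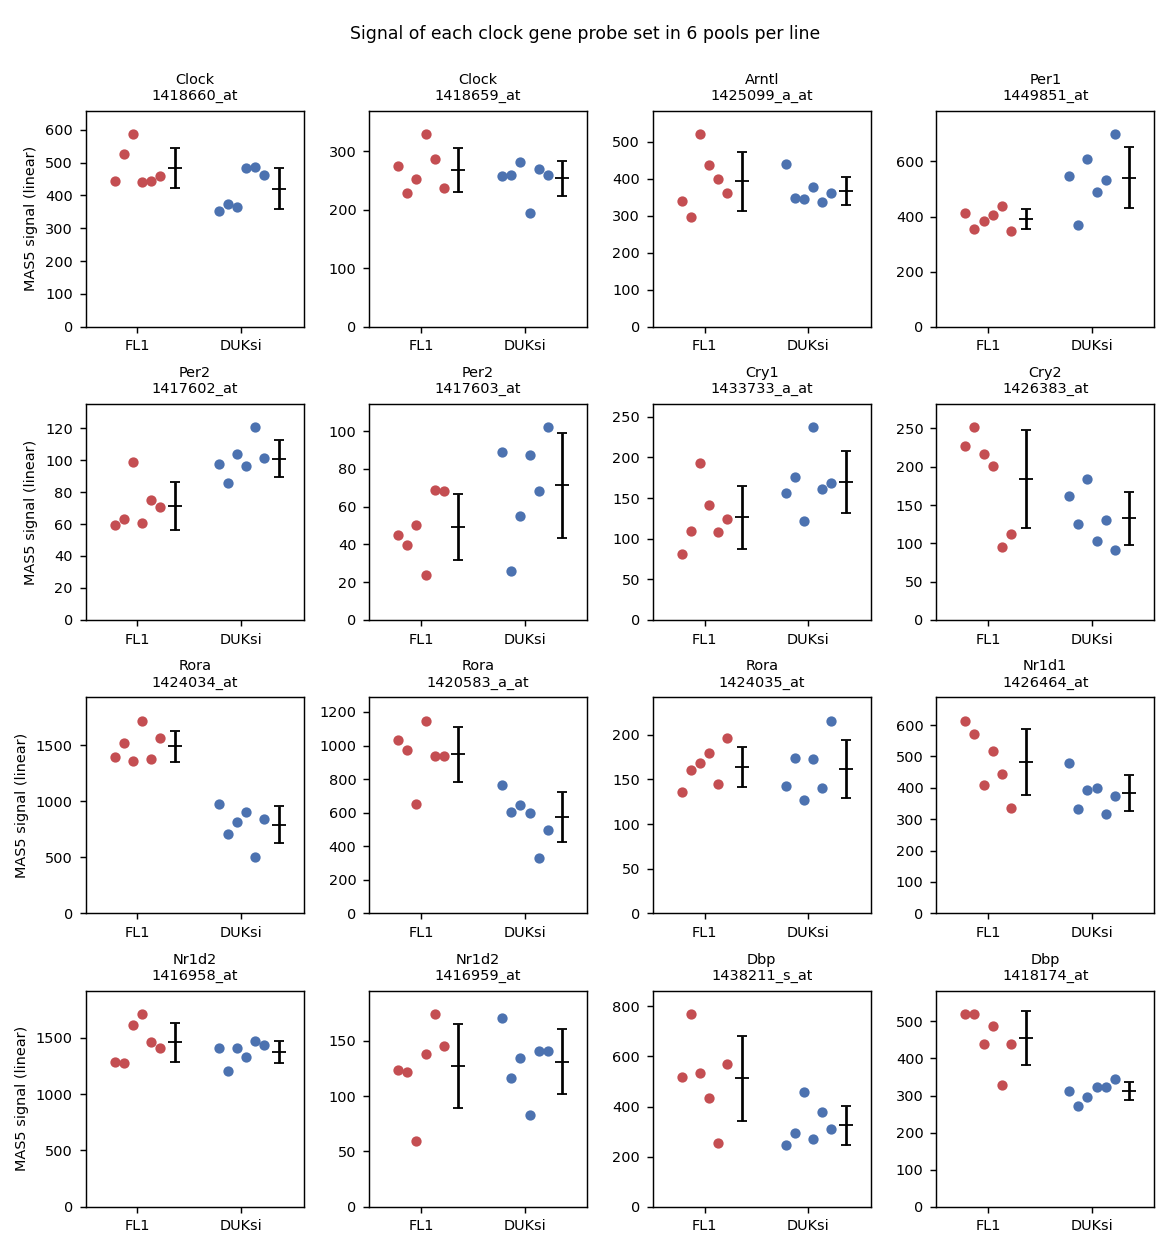
Signal (MAS5, linear) of each clock probe set in 6 FL1 pools (left, red) and 6 DUKsi pools (right, blue), pools 1 to 6 from left to right, with mean and SD in black. In 1424034_at of Rora the FL1 pools lie at 1361.5 and above and the DUKsi pools at 975.25 and below, and in the other 15 probe sets the lines overlap.

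Nr1d1 and Nr1d2, the repressors on the same element, did not pass the test. Nr1d1 gave 334.3 to 614.05 in FL1 (median 480.55) and 317.6 to 480.15 in DUKsi (median 383.25). Its means were 481 ± 105 in FL1, against 382 ± 58.0 in DUKsi, and the log2 fold change was 0.32 with an SE of 0.144 (adjusted p = 0.236). FL1 was higher in 30 of 36 pairs of pools, and 3 FL1 pools were above all of DUKsi. Nr1d2 gave 1459 ± 176 in FL1, against 1376 ± 96.0 in DUKsi in its probe set 1416958_at, with a log2 fold change of 0.08 (95% interval -0.09 to 0.25). Its second probe set 1416959_at gave 127 ± 38.2 in FL1, against 131 ± 29.4 in DUKsi. FL1 pool 3 was the lowest of all pools there, at 59.55.

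The activator pair did not pass the test either. Arntl, the best known target of Rora, gave 297.1 to 521.8 in FL1 (median 380.375) and 336.4 to 438.9 in DUKsi (median 354.575). The FL1 pools held both the highest and the lowest of the 12 values. The log2 fold change was 0.08 with a 95% interval of -0.19 to 0.34 (adjusted p = 0.78). Clock, the partner of Arntl, gave 484 ± 60.7 in FL1, against 421 ± 62.9 in DUKsi in 1418660_at (log2 ratio of the lines 0.21 with an SE of 0.111, adjusted p = 0.327). In 1418659_at it gave 268 ± 37.2 in FL1, against 253 ± 30.5 in DUKsi (a log2 ratio of 0.08 with an SE of 0.121). Both Clock probe sets overlapped between the lines.

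Among the repressors of the loop, Per1, Per2 and Cry1 had lower means in FL1 and Cry2 a higher one, and none was past the test. Per1, which light and hormones induce quickly in many tissues, gave 346.95 to 439.3 in FL1 (median 394.925) and 369.1 to 700.7 in DUKsi (median 538.925). FL1 was higher in only 4 of 36 pairs of pools, those in which DUKsi pool 2, the lowest of its line at 369.1, was the partner. The means were 391 ± 35.6 in FL1, against 541 ± 112 in DUKsi, and the log2 fold change was -0.45 with an SE of 0.128 (95% interval -0.72 to -0.18, adjusted p = 0.0474). Without DUKsi pool 2 it was -0.55, with an adjusted p of 0.00553. With any other single pool left out the adjusted p was 0.0512 to 0.107, the last without DUKsi pool 6, where the log2 fold change was -0.37.

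Per2, the paralog of Per1, gave low signals. In 1417602_at the FL1 pools gave 59.15, 63, 98.85, 60.8, 74.85 and 70.6, against 97.3, 85.75, 103.95, 96.5, 120.55 and 101.1 in DUKsi pools. All FL1 pools but pool 3 lay below the lowest DUKsi pool. The log2 fold change was -0.52 (SE 0.171, adjusted p = 0.0892), and without FL1 pool 3, the pool with the highest actin 3′ to 5′ ratio, it was -0.62 (adjusted p = 0.0235). With any other single pool left out the adjusted p was 0.102 to 0.193, and the log2 fold change was -0.46 without DUKsi pool 5. The second probe set of Per2, 1417603_at, gave 49.3 ± 17.3 in FL1, against 71.3 ± 27.8 in DUKsi, and the log2 fold change was -0.49 with an SE of 0.342 (adjusted p = 0.464). It was -0.76 without DUKsi pool 2 (adjusted p = 0.171) and -0.30 without FL1 pool 4 (adjusted p = 0.682).

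The cryptochromes inhibit Clock and Arntl most directly. Cry1 gave 126 ± 38.4 in FL1, against 170 ± 37.9 in DUKsi (log2 ratio of the lines -0.45 with an SE of 0.203, adjusted p = 0.226). Cry2 gave 184 ± 64.5 in FL1, against 133 ± 34.7 in DUKsi (log2 ratio of the lines 0.42 with an SE of 0.252, adjusted p = 0.381). In Cry2, 4 FL1 pools lay above all DUKsi pools and the other two, pools 5 and 6, lay within the DUKsi range.

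Dbp, the output factor, had a higher mean in FL1 in both of its probe sets, and 1 of them passed the test. In 1418174_at the FL1 pools gave 519.05, 519.75, 437.95, 486.75, 328.7 and 438.45, against 312.15, 272.6, 296.25, 322.35, 322.2 and 345.65 in DUKsi pools. Only FL1 pool 5 was not above all of DUKsi, and it was below DUKsi pool 6 alone. The means were 455 ± 71.9 in FL1, against 312 ± 25.1 in DUKsi, a ratio of 1.46 (log2 fold change 0.53, SE 0.113, 95% interval 0.29 to 0.77, adjusted p = 0.00828). The adjusted p was close to the threshold. It was above 0.01, up to 0.0241, when any single pool other than FL1 pool 5 was left out, and without FL1 pool 5 it was 0.000854.
The other Dbp probe set, 1438211_s_at, gave 254.4 to 769.45 in FL1 (median 525.325) and 248.05 to 457.2 in DUKsi (median 302.6). The means were 513 ± 169 in FL1, against 326 ± 77.8 in DUKsi, and the log2 fold change was 0.61 with an SE of 0.216 (adjusted p = 0.113). FL1 pool 5 was again the lowest FL1 pool, and without it the log2 fold change was 0.80 (adjusted p = 0.00976). With any other single pool left out the adjusted p was 0.0708 to 0.216, the last without FL1 pool 2, where the log2 fold change was 0.48.

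The spread between pools was set beside that of probe sets of like mean signal, since clock transcripts change through the day. In log2 units it ran from 0.132 to 0.587 between FL1 pools and from 0.104 to 0.727 between DUKsi pools. It exceeded the median of probe sets of like signal for 9 of 16 probe sets in FL1 and for 11 in DUKsi, and between the arrays of a pool for 6. Rora 1424034_at varied by 0.132 between FL1 pools and 0.343 between DUKsi pools, with 0.0639 between the arrays of a pool. Dbp 1438211_s_at varied by 0.532 between FL1 pools and 0.326 between DUKsi pools, with 0.184 between arrays.

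Correlations between clock genes within a line were computed for 7 pairs, 14 in all, over 6 pools each. After adjustment none passed, with the lowest adjusted p at 0.204 for Pearson's r and 0.117 for Spearman's rho (two-sided exact permutation tests). Rora and Nr1d1 had r = 0.01 in FL1 (exact p = 0.981, rho = 0.09, exact p = 0.919, r = 0.625 without the 2 pools farthest from the median of the first gene) and r = 0.864 in DUKsi (exact p = 0.0292, rho = 0.943, exact p = 0.0167, r = 0.922 without such pools). Arntl and Dbp had r = -0.41 in FL1 (exact p = 0.438, rho = -0.49, exact p = 0.356, r = -0.50 without such pools) and r = -0.75 in DUKsi (exact p = 0.0722, rho = -0.89, exact p = 0.0333, r = -0.58 without such pools). Arntl and Nr1d1 had r = -0.42 in FL1 (exact p = 0.408, rho = -0.54, exact p = 0.297, r = -0.02 without such pools) and r = 0.886 in DUKsi (exact p = 0.0181, rho = 0.829, exact p = 0.0583, r = 0.475 without such pools). Dbp and Nr1d1 had r = 0.157 in FL1 (exact p = 0.783, rho = -0.09, exact p = 0.919, r = -0.58 without such pools) and r = -0.44 in DUKsi (exact p = 0.383, rho = -0.60, exact p = 0.242, r = -0.86 without such pools). The other 3 pairs had an unadjusted exact p of r of at least 0.149, and among them Rora and Arntl had rho = -0.26 in FL1 (exact p = 0.658) and 0.943 in DUKsi (exact p = 0.0167). Whether the correlations differ between the lines was not tested.

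In 3 lists of genes around the core loop no gene was past the test, where 3.74% of all genes were, and in each of them 1 gene showed no overlap of the pools. Among all probe sets 4.62% showed no overlap, and 6.96% of those above the median signal. Of the 12 other clock loop genes 11 were measured, and 0 rose and 0 fell, with a median log2 fold change of -0.08 against -0.07 over the whole array. Tef, a relative of Dbp that binds the same D-box, gave 1729 ± 48.3 in FL1, against 1939 ± 156 in DUKsi, a difference of -0.16 on the log2 scale (adjusted p = 0.149). Cipc, an inhibitor of Clock, gave 652 ± 35.6 in FL1, against 790.2 ± 64.3 in DUKsi with no overlap of the pools, a difference of -0.27 on the log2 scale (adjusted p = 0.0302). Of the kinases, ligases and deacetylases that act on clock proteins, 13 of 17 were measured, and 0 rose and 0 fell. Csnk1d, which phosphorylates Per proteins, was at 0.10 on the log2 scale (adjusted p = 0.389) and Ppp1cc, a phosphatase subunit, was at 0.16 with all FL1 pools above DUKsi (adjusted p = 0.106). Of the co-factors 10 of 13 were measured, and 0 rose and 0 fell. Nono, a partner of Per proteins, was at 0.06 on the log2 scale (adjusted p = 0.644), and Ddb1, part of a ubiquitin ligase, was at 0.08 (adjusted p = 0.672). Sfpq, an RNA-binding partner of Nono named after its values were seen, gave 1589 ± 176 in FL1, against 1985 ± 148 in DUKsi with no overlap of the pools, and stood at -0.33 (adjusted p = 0.0192).

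Genes reported as ROR targets, which include Arntl, Clock, Nr1d1 and Cry1, were all measured, 13 of 13, and 0 rose and 0 fell. Past the test were 3.74% of all genes, so that a count of 0 in a list this short says little. Apoa1, the main protein of high-density lipoprotein, gave 1210 ± 253 in FL1, against 791 ± 124 in DUKsi with all FL1 pools above DUKsi, and just missed the threshold, a difference of 0.61 on the log2 scale (adjusted p = 0.0104). No overlap of the pools, in either direction, was seen in 4.62% of all probe sets and in 6.96% of those above the median signal. Nfkbia, the inhibitor of NF-kappa B, gave 5534 ± 871 in FL1, against 5815 ± 496 in DUKsi, a difference of -0.08 on the log2 scale (adjusted p = 0.687). The median of the list was -0.08.

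Rhythmic genes of many peripheral tissues were measured for 12 of 16, of which 1 rose and 0 fell, with a median log2 fold change of -0.04. The risen gene was Fkbp5, a chaperone of the glucocorticoid receptor, with 4124 ± 612 in FL1, against 2741 ± 386 in DUKsi, a difference of 0.59 on the log2 scale (adjusted p = 0.00274). Fkbp5 also stands in the list of glucocorticoid induced genes, of which 10 of 10 were measured, 2 rose and 0 fell, beside 3.74% of all genes in either direction, with a median of 0.31. The other risen gene there was Mt1, a metal-binding metallothionein, with 4990 ± 486 in FL1, against 3554 ± 127 in DUKsi, a difference of 0.48 on the log2 scale (adjusted p = 0.000258). Sgk1, a kinase named after its values were seen, had the largest log2 fold change of that list, 1.14, with an adjusted p of 0.0142. Per1, in the same list, lay on the other side at -0.45. Of 14 immediate early genes, which respond to handling and to hormones within minutes, 0 rose and 0 fell. Egr1 was at 0.09 on the log2 scale (adjusted p = 0.774) and Dusp1 at 0.02 (adjusted p = 0.98).

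**Figure D3:**
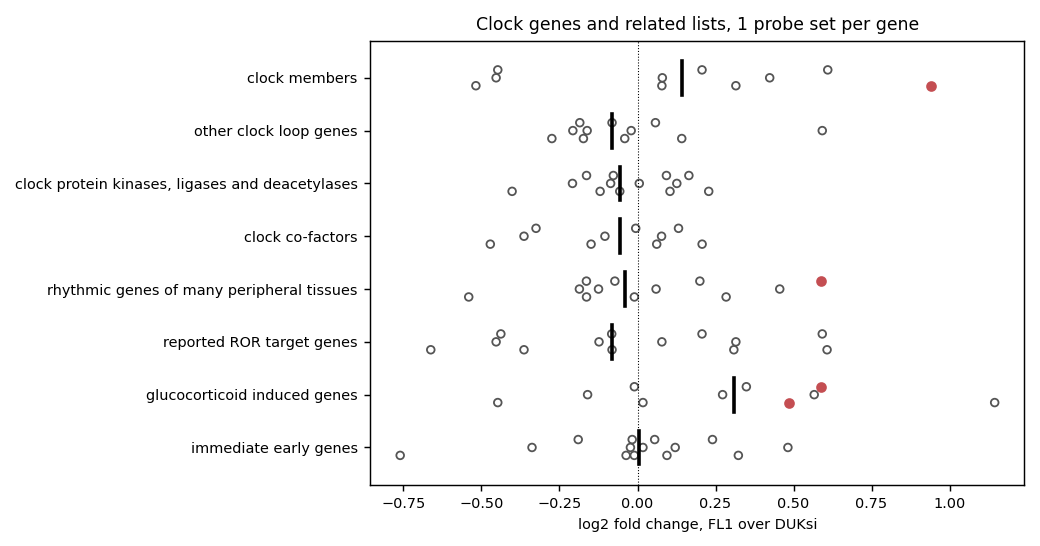
Log2 fold change of FL1 over DUKsi of each measured gene in the clock genes and 7 related lists, 1 probe set per gene. Filled points are past the test (adjusted p under 0.01), black bars are medians; the filled points are Rora, Fkbp5 (in 2 lists) and Mt1.

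Some markers of luteal and granulosa cells differed between the lines beside Rora. Of all genes 3.74% were past the test, and the markers were counted beside this share. Of the 9 luteal cell markers 7 were measured, all 7 had a higher mean in FL1 and 2 rose, Cyp11a1 (side-chain cleavage of cholesterol) by 0.98 and Ptgfr (the receptor of prostaglandin F2 alpha) by 1.82 on the log2 scale. Their summed signal was 43251 to 52111 in FL1 pools and 24117 to 34891 in DUKsi pools. Of the 12 granulosa cell markers 10 were measured, 0 rose and 2 fell, Inhba (a subunit of activin and inhibin) by 0.52 and Ccnd2 (a cyclin of dividing granulosa cells) by 0.74 on the log2 scale. The other 8 did not pass. In all, 8 of the 10 granulosa markers had a lower mean log2 signal in FL1 and 2 a higher one, Amh by 0.27 and Gja1 by 0.0014. Over the whole array, 13961 of 22626 probe sets had a lower mean log2 signal in FL1 and 8665 a higher one. The summed signal of the granulosa markers was 42795 to 49009 in FL1 pools and 50245 to 58939 in DUKsi pools. Neither sum overlapped between the lines. The sums of the theca markers, the oocyte markers, the 10 clock genes and the glucocorticoid induced genes did not overlap either. Sums were taken for 18 lists, and those of the remaining lists overlapped. The clock sum includes Rora 1424034_at, at 1490 in FL1, against 791 in DUKsi, while the other 9 clock genes were not past the test. A clock sum without Rora was not computed, so that this sum does not show a shift of the whole clock set. No marker was at 0, since the lowest signal on any array was 0.1.
Within the lines, over 6 pools each and in log2 units, Rora 1424034_at correlated with the luteal sum at r = 0.881 in FL1 (exact permutation p = 0.0181, adjusted 0.0241; rho = 0.829, exact p = 0.0583, adjusted 0.0778) and at r = 0.931 in DUKsi (exact p = 0.00556, adjusted 0.0194; rho = 0.943, exact p = 0.0167, adjusted 0.0667). Without the 2 pools with the sums farthest from the median, which leaves 4 pools, r was 0.732 in FL1 and 0.692 in DUKsi. With the granulosa sum, r was -0.70 in FL1 (exact p = 0.121, adjusted 0.121; rho = -0.60, exact p = 0.242) and -0.90 in DUKsi (exact p = 0.00972, adjusted 0.0194; rho = -0.83, exact p = 0.0583), or -0.99 in FL1 and -0.67 in DUKsi without such pools. These 4 correlations were chosen after seeing the data, and the part of the cell types in the line difference of Rora was not tested.

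**Figure D4:**
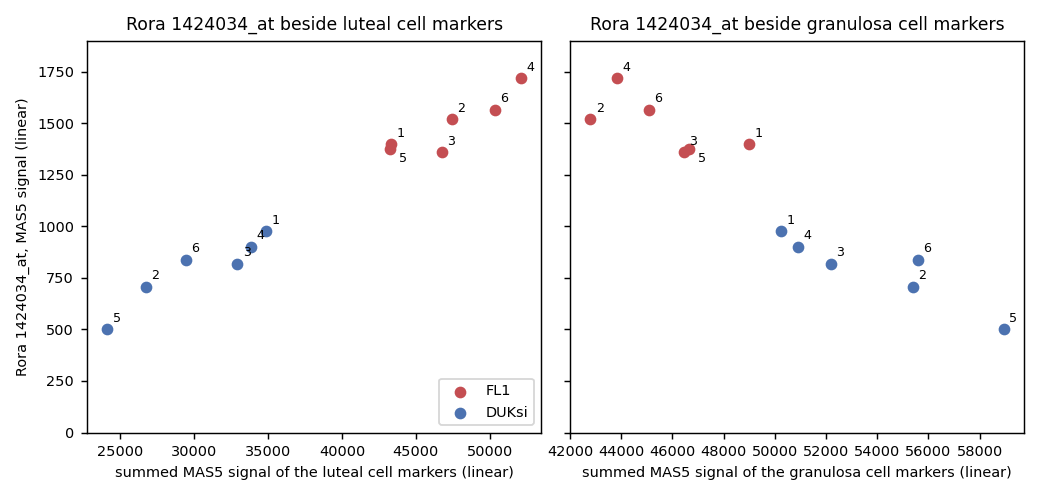
Signal of Rora 1424034_at (vertical axis, MAS5, linear) against the summed signal of the luteal cell markers (left) and of the granulosa cell markers (right) in 6 FL1 pools (red) and 6 DUKsi pools (blue), numbered by pool. DUKsi pool 5 has the lowest Rora signal (501.15), the lowest luteal sum (24117) and the highest granulosa sum (58939).

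The probe sets whose deviations from the line means were most like those of Rora 1424034_at, among 10417 of other genes above the median signal, were those of Fdx1 (r = 0.937 over 12 pools), Ttc13 (0.923), Scarb1 (0.923), Dnaja4 (0.917) and Cited4 (0.909). Fdx1 is the ferredoxin that passes electrons to Cyp11a1, and Scarb1 takes up cholesterol from lipoproteins and is also 1 of the luteal markers, by another probe set. Fdx1 gave 15980 in FL1 on average, against 11560 in DUKsi, a difference of 0.48 on the log2 scale (adjusted p = 0.0059). Scarb1 1455820_x_at was at 0.52 on the log2 scale (adjusted p = 0.086). Cited4, a co-regulator that binds the acetyltransferases CBP and p300, was at 0.90 (adjusted p = 0.153). Ttc13 and Dnaja4 had log2 fold changes of 0.10 and 0.23, neither past the test. The r values were the highest of many and are a description.

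RNA integrity was read from control transcripts as the signal at the 3′ end over that at the 5′ end. For beta-actin this ratio was 1.67 ± 0.423 in FL1, against 1.27 ± 0.0522 in DUKsi (SD, n = 6 each; two-sided exact permutation test, p = 0.00216). For Gapdh it was 1.53 ± 0.42 in FL1, against 1.28 ± 0.146 in DUKsi (exact p = 0.2035). The median signal over all probe sets was 220.9 ± 7.97 in FL1, against 234.6 ± 4.99 in DUKsi (exact p = 0.0108). The lowest actin ratio of an FL1 pool was 1.322 and the highest of a DUKsi pool 1.317. The lines thus did not overlap, and a fit with this covariate cannot tell RNA integrity and line apart. With the actin ratio as a covariate the log2 fold change of Rora 1424034_at was 0.98 (adjusted p = 0.00214) and that of Dbp 1418174_at was 0.60 (adjusted p = 0.0124). The same covariate put Cry1 at -0.86 (adjusted p = 0.0116), Per2 1417602_at at -0.76 (adjusted p = 0.0177), Nr1d1 at 0.56 (adjusted p = 0.0279), the brighter Clock probe set at 0.09 (adjusted p = 0.667) and Rora 1420583_a_at at 0.99 (adjusted p = 0.00679), of which only the last was past the test. With all pools scaled to the same median signal, Rora 1424034_at was at 1.03 (adjusted p = 0.000153), Dbp 1418174_at at 0.62 (adjusted p = 0.00327) and Per1 at -0.36 (adjusted p = 0.125).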

How the data were processed

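Ovary RNA of 6 FL1 pools and 6 DUKsi pools was measured by the authors on MOE 430A arrays, 2 for each pool. The deposited intensity values are linear signals that the authors computed with MAS5 (version not given with the samples) with every array brought to the same overall level. Array medians were 212 to 244.5, and the number of pools, 6 per line, limits the precision. Detection calls were not used here, so that no probe set is called absent. By the methods each animal's RNA was prepared alone and entered 1 pool, so that p-values measure the spread between pools and not between animals.

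From the signals, both arrays of each pool were averaged, and their log2 values compared in R 4.3.3 with limma 3.58.1 (mean-variance trend in eBayes). Without 64 controls, 22626 probe sets were adjusted by Benjamini-Hochberg. Fold changes are FL1 over DUKsi. Probe sets were named by the platform annotation (20380 with 1 gene symbol, 691 with several and 1555 with none), and only those with 1 symbol were used for genes. A gene in a list was taken by its probe set of highest mean signal. Pairs of probe sets, correlations and RNA quality were tested by exact permutation over the pools (scipy 1.17.1). Promoter windows came from RefSeq, GRCm38.p6. The limma procedure was tested on simulated signals.

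All clock probe sets are named. From each other list up to 4 genes with the largest absolute change among those past the test are named, or up to 2 of the highest signal where none passed. For Rora the 5 most similar probe sets are named. The members, lists and tests were chosen with earlier results of these data known.

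Alternatives were the first or second array of a pool, averaging in log2, the 24 arrays with a random effect for pools, quantile or median scaling, a constant of 48.6 (the 20th percentile) added before log2, the 40% of dimmest probe sets left out, limma without the trend or robust, the methods' t-test, the pool number as a block, the actin ratio as a covariate, an adjusted p under 0.05, and pools left out.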

Additional observations from a re-analysis of the deposited data

Results flagged for a closer look

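In the dimmer Clock probe set, 1418659_at, DUKsi pool 4 gave 194.05 while the other DUKsi pools gave 256.5 to 282.05, a gap of 0.71 of the range of the line. It was the only pool far from the other 5 of its line by Dixon's ratio among 32 groups of pools, 2 per clock probe set, and chance alone gives about 1 such pool in 20 groups. The brighter Clock probe set, 1418660_at, gave no such pool.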

How the results depend on the processing

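Rora 1424034_at was past the test in all 26 alternatives (log2 fold change 0.82 to 1.03, highest adjusted p 0.00266). Dbp 1418174_at was past it in 8 of 26 (adjusted p 0.000615 to 0.0327), Rora 1420583_a_at in 6, Per1 in 2 and Dbp 1438211_s_at in 1, and the other 11 probe sets in 0. Of 412 results for single probe sets, 369 kept their direction and their side of the threshold, 18 were no longer past it, 9 newly passed and 16 changed direction.

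The 2 clock probe sets past the test became 1 with the first array alone, 1 with the second array alone, 1 without the trend and 1 by the methods' t-test. They became 4 with all 24 arrays (3 higher, 1 lower) and 4 with the threshold at 0.05, and with pools left out in turn 1 to 3. The 1 gene past the test by its brightest probe set became 2 with all 24 arrays and 2 at an adjusted p under 0.05, and with pools left out 1 to 2 (Dbp without FL1 pool 5, Per1 without DUKsi pool 2). Of all probe sets, 764 passed, and 468 with the second array, 1278 with all 24 arrays, 507 by the methods' t-test, 1241 with the actin covariate, 1564 at an adjusted p under 0.05 and 573 to 943 with pools left out. With median scaling 633 calls were higher and 232 lower (73.2% higher, against 54.1%), and the median of all probe sets was 0.02 in place of -0.07; 3 clock probe sets then passed, all higher.

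The direction changed in probe sets near 0 only, on the log2 scale. Nr1d2 1416958_at was at -0.036 with the actin covariate. Nr1d2 1416959_at was at 0.285 with the second array, 0.038 with quantile normalization, 0.0034 with median scaling, 0.373 with the covariate and 0.121 without FL1 pool 3 (-0.21 to 0.12 with pools left out). Clock 1418659_at was at -0.021 with the second array. Rora 1424035_at was at -0.034 with the second array, -0.072 with the covariate, -0.021 without FL1 pool 6, -0.033 without DUKsi pool 3 and -0.0052 without DUKsi pool 5 (up to 0.12 with others left out). Arntl was at -0.066 with the first array, -0.162 with the covariate, -0.0086 without FL1 pool 3 (up to 0.15 with others left out) and -0.00022 without FL1 pool 3 and DUKsi pool 4. The cause of these changes was not tested.

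With the pool number as a replicate block, 564 of all probe sets and 1 clock probe set, Rora 1424034_at, passed, and the adjusted p of Dbp 1418174_at was 0.0327. Same-numbered pools correlated at -0.26 to 0.17 in their deviations and 0 of 6 were closest to their own number. By the methods the pools were made up with regard to the size of the litters of origin. With 6 pools per line, these correlations cannot show that same-numbered pools have nothing in common. Leaving out the dim probe sets removed both Per2 probe sets, Nr1d2 1416959_at and Cry1, which have no value there. The time of day of each ovary and the place of each probe set in its transcript were not used here.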

Other observations

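Other cell type markers were counted by the same test, 1 probe set per gene, beside the 3.74% of all genes that were past it. Of 6 theca cell markers measured 0 rose and 1 fell, Aldh1a1 (retinaldehyde dehydrogenase), by 0.52 on the log2 scale, and their summed signal was 15461 to 18123 in FL1 pools and 18989 to 24657 in DUKsi pools. Of 10 oocyte markers 0 rose and 1 fell, Zp3 (a zona pellucida protein), by 0.49. All 10 had a lower mean log2 signal in FL1, as had 13961 of the 22626 probe sets of the whole array. The summed signal of the oocyte markers was 7560.5 to 9928.8 in FL1 pools and 9967 to 11775 in DUKsi pools. Of 8 endothelial markers 1 rose, Pecam1, by 0.58, and 0 fell. Of 8 macrophage, 7 lymphocyte, 6 smooth muscle, 6 oviduct and uterus and 5 adipocyte markers 0 rose and 0 fell by limma. The summed signal of the oviduct and uterus markers was 553.5 to 1170.4 in FL1 pools and 709.45 to 5980.1 in DUKsi pools.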
